A study of Mus musculus with 6 samples.

Results

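RAP1 is a small GTPase of the RAS superfamily, encoded in the mouse by Rap1a and Rap1b, and the 10 genes described here are these GTPases with 5 of their activating proteins and 3 of their exchange factors. They were selected by gene symbol from the 52550 Ensembl genes measured, and all 10 were found. The family was assembled around Rap1gap2, an activating protein whose level was higher with atorvastatin in these same libraries. Its difference is therefore a description and carries no test, and the same holds for the other members, which were read from the same comparison. RNA was sequenced from epithelial cells of the colon of adult male Apc Min/+ mice, 5 to 6 weeks of age at treatment. Apc Min/+ mice carry a truncating mutation in 1 copy of the tumour suppressor Apc and develop intestinal adenomas. Both groups carried this genotype, and no wild-type group was analysed here. The atorvastatin group had 3 libraries from mice gavaged every other day with the statin at 20 mg/kg, and the control group had 3 libraries from mice given the vehicle, 2% Tween 80. The labels number the libraries as replicates without saying whether each is a separate animal, do not give the length of treatment, and do not say whether adenoma tissue was included. Spreads and p-values thus measure the differences between these libraries, which may be partly technical.

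RAP1 switches between a GTP-bound active form and a GDP-bound inactive form. Exchange factors (GEFs) load it with GTP, and GTPase-activating proteins (GAPs) speed up GTP hydrolysis and so switch it off. In epithelia, active RAP1 is known for strengthening integrin-mediated attachment and cadherin-based cell junctions. Both RAP1 proteins end in a CAAX motif whose cysteine receives a geranylgeranyl lipid, which anchors the protein in membranes. This lipid is made from mevalonate, the product of the enzyme that statins inhibit.

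The coding ends of the GTPases are shown because they hold this lipidation motif, as the last 63 bases of the coding sequence in GENCODE release M21 (5′ to 3′). Capitals mark the codons of the CAAX motif, and the stop codon follows them.
Rap1a: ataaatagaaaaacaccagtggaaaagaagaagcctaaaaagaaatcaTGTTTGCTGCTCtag
Rap1b: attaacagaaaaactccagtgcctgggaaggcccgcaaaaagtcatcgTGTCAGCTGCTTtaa
Each motif opened with the cysteine codon TGT. Over the whole coding sequence of 555 bases, Rap1a and Rap1b were identical at 81.6% of the bases.

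The activating proteins speed up GTP hydrolysis by RAP1 with a catalytic asparagine, known from human RAP1GAP. The 45 bases around the matching codon are shown for the 5 activating proteins, again from GENCODE M21, because this is the feature that groups them. Capitals mark the asparagine codon.
Rap1gap2: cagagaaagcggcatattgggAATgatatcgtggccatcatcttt
Rap1gap: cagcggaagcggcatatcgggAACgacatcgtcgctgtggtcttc
Sipa1: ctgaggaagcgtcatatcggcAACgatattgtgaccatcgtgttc
Sipa1l1: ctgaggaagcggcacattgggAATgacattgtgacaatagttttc
Sipa1l3: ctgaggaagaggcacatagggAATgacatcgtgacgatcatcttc
The codon was number 338 in Rap1gap2, 354 in Rap1gap, 426 in Sipa1, 708 in Sipa1l1 and 714 in Sipa1l3, counted from the start codon of the longest complete coding sequence. Rap1gap2 and Rap1gap were identical at 67.2% of 2027 aligned coding bases.

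The values were FPKM, fragments scaled to transcript length and to the mapped total. Comparisons between genes thus rest on the transcript lengths used, and comparisons between libraries on a like make-up of the totals. Summed FPKM ran from 407857 (atorvastatin replicate 2) to 430832 (atorvastatin replicate 3), of which 30.3% and 33.2% were mitochondrial. The product of FPKM and exon length piled up at a step of 26.9 to 27.2 in the atorvastatin libraries and 24.0 to 27.5 in the controls. The step was sought only within a preset window, which bounds the depth it can imply. If that step is 1 fragment, the libraries hold 36800000 to 37100000 fragments with atorvastatin and 36400000 to 41700000 in control, with control replicate 3 the deepest. Across the 11644 genes that reached 1 FPKM in 3 or more libraries, Pearson correlations of log2(FPKM + 1) were 0.990 to 0.992 within atorvastatin, 0.989 to 0.990 within control and 0.984 to 0.989 between the groups. These are correlations across genes, which are not independent replicates. The epithelial label held: the 8 epithelial markers summed to 5340 to 5590 FPKM with atorvastatin and 5680 to 5850 FPKM in control, with Krt8, the simple-epithelium keratin, the most abundant. All endothelial, platelet, fibroblast and smooth muscle markers were below 1 FPKM in every library, and Kdr and Treml1 were listed at 0 throughout. The 7 B and plasma cell markers summed to 2.55 to 3.32 FPKM with atorvastatin and 5.08 to 11.3 FPKM in control. The 7 myeloid markers summed to 3.39 to 4.09 FPKM with atorvastatin and 4.35 to 7.89 FPKM in control. Both of these sums and the epithelial sum lay lower with atorvastatin without overlap, as did the T and NK cell sum given below. Of all tested genes, 6.05% lay lower without overlap.

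The GTPases were the most abundant members, and for both of them the groups overlapped. Rap1b was at 50.4, 46.7 and 46.1 FPKM with atorvastatin, against 47.3, 50.7 and 51.4 FPKM in control. The difference in log2(FPKM + 1), atorvastatin minus control, was -0.06 ± 0.06 (standard error; 95% interval -0.20 to 0.08). Rap1a was at 24.2, 24.9 and 24.6 FPKM with atorvastatin, against 23.8, 25.7 and 26.3 FPKM in control (difference -0.04 ± 0.05, interval -0.17 to 0.09). Rap1b thus averaged 47.7 ± 2.36 FPKM (SD, n = 3) and Rap1a 24.6 ± 0.353 FPKM with atorvastatin, against 49.8 ± 2.18 and 25.3 ± 1.33 FPKM in control. In each library Rap1b was the higher of the pair. Together the GTPases summed to 72.3 ± 2.06 FPKM with atorvastatin and 75.1 ± 3.50 FPKM in control. The processed pseudogene Gm9392, identical to the Rap1a coding sequence at 98.6% of 554 aligned bases, was listed at 3.61, 3.97 and 4.07 FPKM with atorvastatin and 3.46, 4.21 and 3.65 FPKM in control, so some fragments may be shared between Rap1a and this copy. The intronic RNA gene Gm43328, which lies inside Rap1a on the same strand, was at 0.960 to 1.30 FPKM with atorvastatin and 0.844 to 1.28 FPKM in control.

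**Figure D1:**
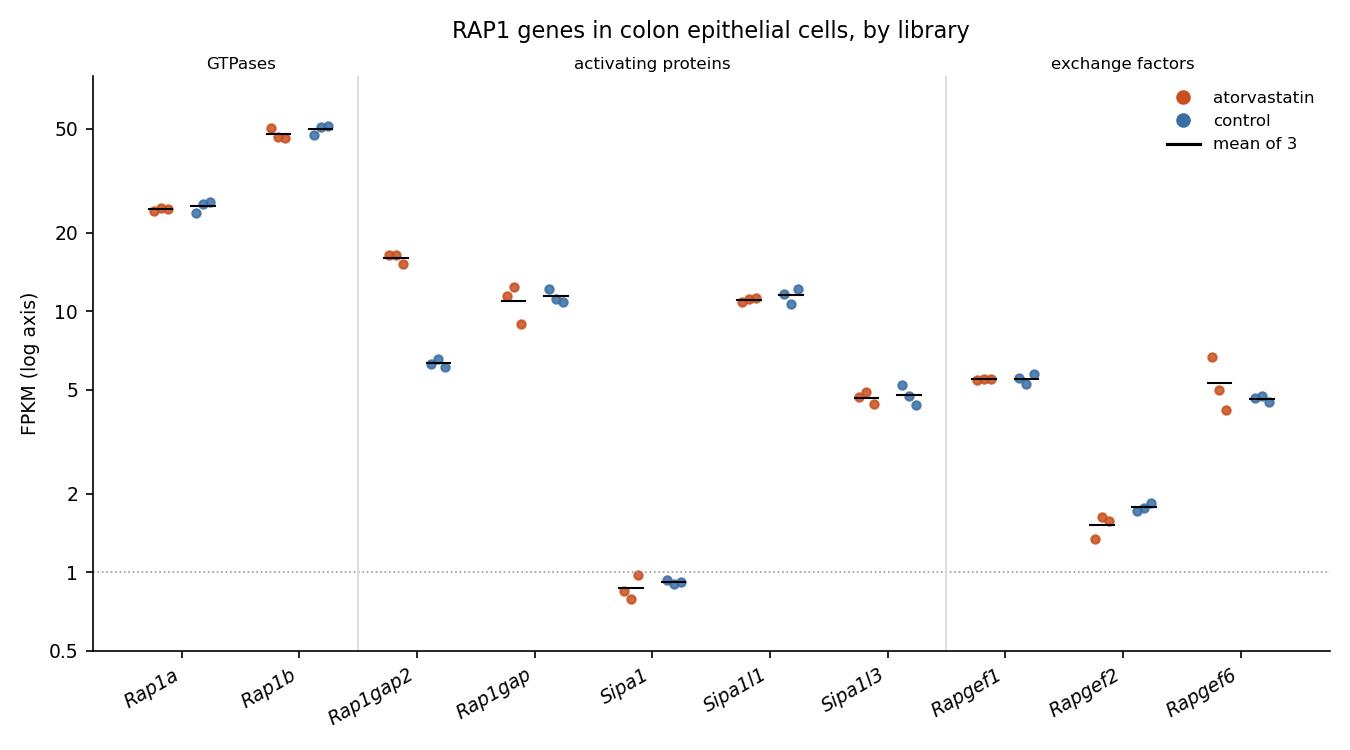
FPKM (log axis) of the 10 RAP1 genes, with 1 point per library, atorvastatin left of control, and a bar at the mean of 3 libraries. The dotted line marks 1 FPKM. The Rap1gap2 points lie at 15.2 to 16.5 FPKM with atorvastatin and at 6.13 to 6.57 FPKM in control, while the points of most other members overlap.

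Among the activating proteins, Rap1gap2 stood apart. This gene, first described in platelets, was at 16.4, 16.5 and 15.2 FPKM with atorvastatin, against 6.28, 6.57 and 6.13 FPKM in control. The groups were far apart, with the lowest atorvastatin library well above the highest control library. The means were 16 ± 0.735 FPKM with atorvastatin and 6.33 ± 0.226 FPKM in control (SD, n = 3 each), a ratio of 2.54, and the difference in log2(FPKM + 1) was 1.22 ± 0.06 (interval 1.09 to 1.35). Within a group the highest library exceeded the lowest by a factor of 1.09 with atorvastatin and 1.07 in control. In bulk RNA, more cells of a type and more RNA per cell cannot be told apart. Rap1gap2 has 5 annotated transcripts of 450 to 6565 bases, and a gene-level FPKM depends on the transcript lengths that fragments are divided by. More fragments and fragments assigned to shorter transcripts cannot be told apart in these values. If all fragments came from the transcript of 6565 bases, the values would correspond to 3957, 4035 and 3693 fragments with atorvastatin and 1507, 1572 and 1680 fragments in control.

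Rap1gap2 lies on chromosome 11 at 74383356 to 74610915 on the minus strand (GRCm38, GENCODE M21), spans 227560 bases and overlaps no other annotated gene. The promoter of its most upstream RefSeq start, chr11:74610866-74611165 on the minus strand of GRCm38.p6, is shown as the start of the gene with the difference. It runs from 250 bases before the start to 50 after, and capitals mark the letters GGGCGG or their reverse complement, the GC box bound by SP1.
Rap1gap2 promoter: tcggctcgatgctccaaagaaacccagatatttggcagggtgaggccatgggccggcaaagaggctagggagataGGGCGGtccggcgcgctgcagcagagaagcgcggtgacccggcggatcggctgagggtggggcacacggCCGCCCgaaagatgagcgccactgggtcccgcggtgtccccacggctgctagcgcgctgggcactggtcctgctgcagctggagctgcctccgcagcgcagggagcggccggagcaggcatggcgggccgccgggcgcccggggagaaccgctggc
This window held 31 CpG dinucleotides, against a median of 7 over the 32851 promoters of the same length. The GC box letters, searched on both strands, occur in 35.7% of all promoters. TATAAA (13.6% of all), CCAAT (37.4%) and CACGTG (7.2%) were not found in this window. RefSeq lists 3 further starts of the gene, and the gene-level values do not show which start was used.

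For Rap1gap, its paralogue and the RAP1 activating protein from which the catalytic asparagine is known, the groups overlapped. Rap1gap was at 11.4, 12.4 and 8.97 FPKM with atorvastatin, against 12.2, 11.1 and 10.9 FPKM in control. Replicate 3 was the lowest of the atorvastatin libraries (difference -0.07 ± 0.11, interval -0.33 to 0.19). Without that library the difference was 0.06. The antisense gene Rap1gapos, which lies in the span of Rap1gap without sharing exons, was at 0.773, 0.941 and 0.725 FPKM with atorvastatin and 0.405, 0.233 and 0.353 FPKM in control. It was under the 1 FPKM filter and was not tested. The sources used here do not give whether the counting used strand.

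The SIPA1 family, whose members share the activating domain with a PDZ domain, overlapped between the groups throughout. Sipa1l1 was at 10.9, 11.1 and 11.2 FPKM with atorvastatin, against 11.7, 10.7 and 12.2 FPKM in control (difference -0.06 ± 0.06, interval -0.20 to 0.08). Sipa1l3, known for a role in epithelial cell polarity, was at 4.68, 4.91 and 4.40 FPKM with atorvastatin, against 5.22, 4.74 and 4.38 FPKM in control. Its difference was -0.03 ± 0.07 (interval -0.20 to 0.14), and it was 0.01 without atorvastatin replicate 3 and 0.03 without control replicate 1. Sipa1, the founding member, best known from lymphocytes, was at 0.843, 0.790 and 0.972 FPKM with atorvastatin, against 0.933, 0.897 and 0.914 FPKM in control. It was below 1 FPKM in every library and was the 1 member that did not pass the filter on low values. Markers of T and NK cells, a lineage that expresses Sipa1, summed to 12.4 to 17.1 FPKM with atorvastatin and 17.5 to 31.5 FPKM in control, with 10 of 10 lower on average. The pan-leukocyte gene Ptprc was at 0.688, 0.824 and 1.17 FPKM with atorvastatin and 1.81, 1.98 and 1.15 FPKM in control. Their part in the Sipa1 value was not tested.

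The sum of the 5 activating proteins among the members contains Rap1gap2, so its make-up restates the Rap1gap2 difference that chose the family. Activating proteins outside the members, such as Rasa3, are not in this sum. The 5 activating proteins summed to 44.2, 45.8 and 40.7 FPKM with atorvastatin, against 36.4, 34.1 and 34.5 FPKM in control. Rap1gap2 held 37.1%, 36.1% and 37.4% of that sum with atorvastatin and 17.2%, 19.3% and 17.8% in control. The other 4 activating proteins together were at 27.5 ± 1.89 FPKM with atorvastatin and 28.7 ± 1.34 FPKM in control (SD, n = 3 each). In the atorvastatin group Rap1gap2 was the most abundant activating protein, above Sipa1l1 and Rap1gap. In control it lay below Sipa1l1 and Rap1gap and above Sipa1l3. Sipa1l1 and Rap1gap were neighbours whose ranges overlapped in both groups.

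**Figure D2:**
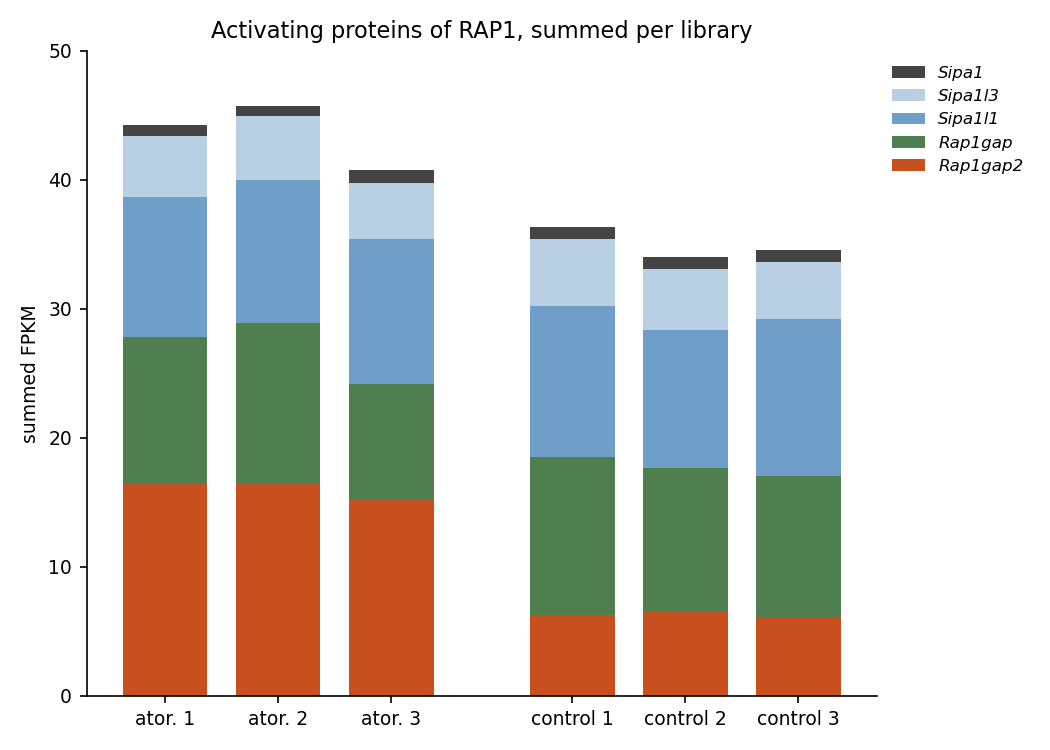
Summed FPKM of the 5 RAP1 activating proteins among the members in each library, stacked by gene from 0. The 3 atorvastatin (ator.) libraries are left of the 3 control libraries. The Rap1gap2 segment reaches 15.2 to 16.5 FPKM with atorvastatin and 6.13 to 6.57 FPKM in control, and the remaining segments are of like height.

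The exchange factors were expressed at a lower level than the GTPases, and 1 of the 3, Rapgef2, lay lower without overlap between the groups, as did 6.05% of all tested genes. Rapgef1, which binds the adaptor CRK, was at 5.47, 5.50 and 5.49 FPKM with atorvastatin, against 5.54, 5.27 and 5.76 FPKM in control. Its difference was -0.01 ± 0.05 (interval -0.13 to 0.12), and 0.02 without control replicate 3. Rapgef2 and Rapgef6, the PDZ-domain exchange factors that act at epithelial junctions, had differences of opposite sign. Rapgef2 was at 1.34, 1.62 and 1.57 FPKM with atorvastatin, against 1.71, 1.76 and 1.84 FPKM in control. The groups did not overlap, and the difference was -0.14 ± 0.07 (interval -0.31 to 0.02). Rapgef6 was at 6.71, 4.98 and 4.20 FPKM with atorvastatin, against 4.65, 4.74 and 4.50 FPKM in control. Its difference of 0.14 ± 0.13 (interval -0.18 to 0.46) rested on atorvastatin replicate 1, without which it was -0.01. The 3 exchange factors summed to 12.3 ± 1.14 FPKM with atorvastatin and 11.9 ± 0.164 FPKM in control.

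Of the 10 members, 9 passed the filter and entered the fit over all genes. There, 1 of the 9, Rap1gap2, lay past the threshold of limma's test (adjusted p under 0.05), where 0.404% of the 11644 tested genes did (47 genes), 0.155% with a higher level and 0.249% with a lower one. Since the comparison chose the family, nothing is read from this count. With 1 library left out, the count over all genes was 13 (atorvastatin replicate 1), 61 (atorvastatin replicate 2), 18 (atorvastatin replicate 3), 7 (control replicate 1), 30 (control replicate 2) and 72 (control replicate 3). Groups did not overlap for 1 member in each direction, Rap1gap2 higher and Rapgef2 lower, where 12.0% of tested genes lay higher without overlap and 6.05% lower. Of the 8 other tested members, 7 had a difference below 0 and 1 above, with differences of -0.14 to 0.14, beside 6677 above 0 and 4967 below over all tested genes. The split of the 8 was 3 above and 5 below without atorvastatin replicate 3, and 2 and 6 without control replicate 1 or control replicate 3. Their median was -0.048, beside 0.018 over all tested genes. For none of the 8 did the 95% interval leave out 0.

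Other genes of the RAP pathway, from a list of 48, were next set beside the family. Of these, 37 passed the filter. Of the 37, limma's test called 0 at an adjusted p under 0.05, where it called 0.404% of all tested genes. The fit without trended and robust variances also called 0 of the 37. With so low a share over all genes, nothing is read from this count. At an unadjusted p under 0.05 there was 1 of the 37, against 1399 of the 11644 tested genes (12.0%). It was Rasa3, which encodes a GAP for RAS and RAP1. Rasa3 was at 4.84, 5.24 and 5.37 FPKM with atorvastatin, against 4.74, 4.23 and 4.62 FPKM in control (difference 0.15 ± 0.06, limma adjusted p = 0.405). The 37 genes had a median difference of -0.031, beside 0.018 over all tested genes, with 14 above 0 and 23 below. With median-ratio scaling the split was 10 and 27, and the median over all tested genes was -0.001. Groups did not overlap for 4 of the 37 genes on the higher side (Crkl, Rasa3, Fnta and Itga6) and for 1 on the lower side (Ctnnd1), beside 12.0% and 6.05% of all tested genes. Crkl, Fnta, Itga6 and Ctnnd1 are named after their values were seen.

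By role, the RAP2 GTPases, close relatives of RAP1, were led by Rap2a at 14.9 ± 0.792 FPKM with atorvastatin and 14.7 ± 0.741 FPKM in control. Rap2b was at 2.35, 2.23 and 1.75 FPKM with atorvastatin, against 2.78, 3.14 and 2.08 FPKM in control (difference -0.23 ± 0.13, limma adjusted p = 0.535). Among further exchange factors, 3 of 7 passed the filter, and Plce1, a phospholipase with an exchange-factor domain for RAP1, was the most abundant at 7.67 ± 0.516 FPKM with atorvastatin and 7.41 ± 0.416 FPKM in control. The exchange factors Rasgrp2 and Rasgrp3, known from platelets and lymphocytes, were at 0.104 FPKM or less in each library. The effectors, proteins that bind the active GTPase, were led by Afdn, which encodes the junction protein afadin, at 23.6 ± 0.832 FPKM with atorvastatin and 23.6 ± 0.938 FPKM in control. Apbb1ip and Rassf5, the effectors through which RAP1 acts on integrins in leukocytes, did not reach 1 FPKM in any library. Cdh1, which encodes E-cadherin, was at 279 ± 16.6 FPKM with atorvastatin and 292 ± 2.04 FPKM in control (difference -0.06, limma adjusted p = 0.742).

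The enzymes that lipidate RAP1 were also measured. Pggt1b, the catalytic subunit of the enzyme that attaches the geranylgeranyl lipid, was at 13.2 ± 0.356 FPKM with atorvastatin and 13.1 ± 0.268 FPKM in control (difference 0.01, limma adjusted p = 0.938). Fnta, its other subunit, was at 9.65 ± 0.205 FPKM with atorvastatin and 9.01 ± 0.415 FPKM in control (difference 0.09, limma adjusted p = 0.577). Rap1gds1, a chaperone of prenylated and unprenylated small GTPases, was at 6.53, 8.13 and 8.54 FPKM with atorvastatin, against 6.52, 5.75 and 8.16 FPKM in control (difference 0.17 ± 0.13, limma adjusted p = 0.704).

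**Figure D3:**
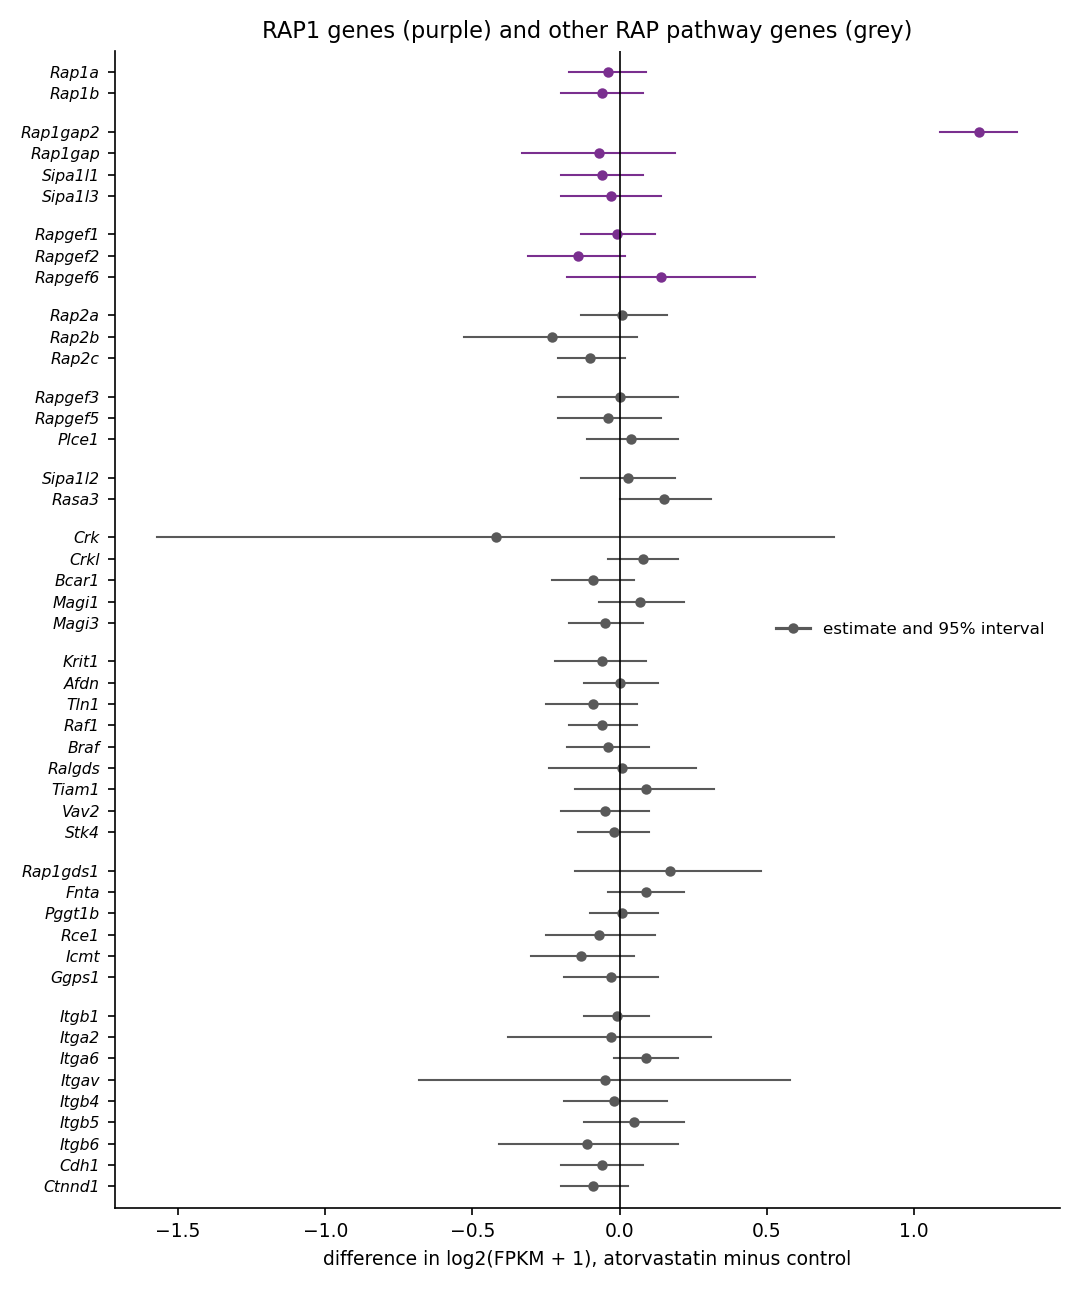
Difference in log2(FPKM + 1), atorvastatin minus control, with its 95% interval, for the 9 tested RAP1 genes (purple) and 37 other RAP pathway genes (grey), grouped by role. Rap1gap2 lies at 1.22, the other members between -0.14 and 0.14, and Crk has the widest interval, -1.57 to 0.73.

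Crk, the adaptor that brings Rapgef1 to the membrane, varied within both groups. It was at 12.9, 14.7 and 35.0 FPKM with atorvastatin, against 13.9, 33.3 and 36.3 FPKM in control. The libraries thus lay at a low level in 3 cases and at a high level in the other 3, across the groups, and the highest library exceeded the lowest of the same group by up to 2.70-fold. Of the 6628 tested genes that averaged 5 FPKM or more, 124 (1.87%) had such a range of 2-fold or more in at least 1 group, and 26 (0.392%) had it in both. Crk has 5 annotated transcripts of 671 to 4290 bases, so the limit given for Rap1gap2 on transcript length applies to it too. The difference between the groups was -0.42 ± 0.48 (limma adjusted p = 0.799).

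The listed markers of enteroendocrine cells, the hormone-producing cells of the epithelium, were higher in the same libraries as Rap1gap2. The list was chosen with earlier results of these data known. The somatostatin gene Sst, outside the list, overlapped between the groups. It was at 1.991, 2.833 and 2.36 FPKM with atorvastatin, against 2.492, 2.055 and 1.444 FPKM in control (difference 0.188, limma adjusted p = 0.697). The 6 listed markers summed to 108 to 130.0 FPKM with atorvastatin and 80.3 to 88.2 FPKM in control. All 6 lay higher without overlap between the groups, where 12.0% of all tested genes did. The filter left 4 of the 6, without Neurod1 and Insm1, and 1 of the 4, the proglucagon gene Gcg, passed limma's test, as 0.155% of all tested genes did on the higher side. Gcg differed by 0.69 (limma adjusted p = 0.0402), and it passed under 8 of 16 alternatives, with limma adjusted p of 0.0183 to 0.231. It did not pass with no filter on low values (0.231), without trended and robust variances (0.0537) or with the replicate block (0.149). Nor did it pass without atorvastatin replicate 1 (0.112) or 2 (0.0962), or control replicate 1 (0.156), 2 (0.0918) or 3 (0.0701). The most abundant, the granule protein gene Chgb, was at 66.3, 54.4 and 56.0 FPKM with atorvastatin, against 42.9, 43.1 and 48.7 FPKM in control. Relative to the control mean, the atorvastatin libraries lay at 1.21 to 1.81 over these 6 markers and at 2.40 to 2.62 for Rap1gap2. The part of these cells in the Rap1gap2 value was not tested. The 6 goblet cell markers summed to 1880 to 2270 FPKM with atorvastatin and 1870 to 1940 FPKM in control, and the 6 markers of differentiated colonocytes to 4340 to 5740 FPKM with atorvastatin and 4410 to 5470 FPKM in control. The 6 platelet markers, of the cells in which RAP1GAP2 was described, summed to 0.464 to 0.957 FPKM with atorvastatin and 0.394 to 0.834 FPKM in control.

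**Figure D4:**
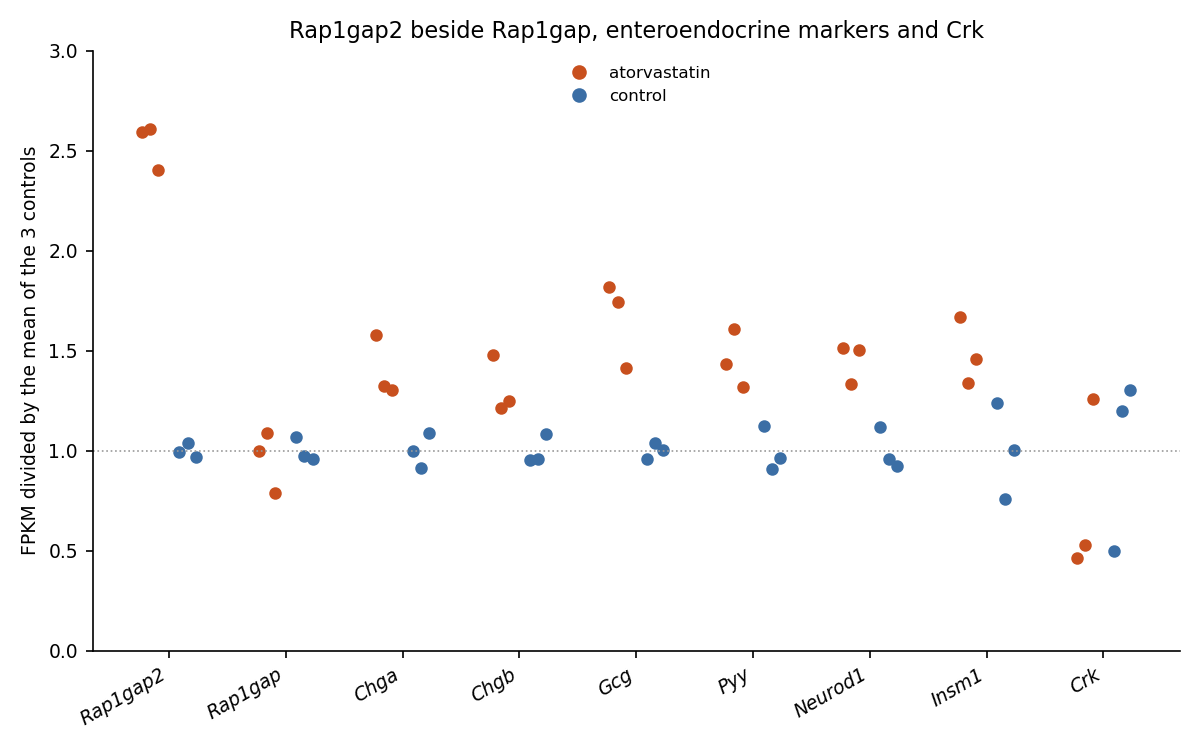
FPKM of each library divided by the mean of the 3 controls, for Rap1gap2, Rap1gap, the 6 enteroendocrine markers and Crk, with atorvastatin points left of control points. Rap1gap2 lies at 2.40 to 2.62 with atorvastatin, the enteroendocrine markers at 1.21 to 1.81, and the Crk points split within both groups.

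The genes whose pattern over the 6 libraries was most like that of Rap1gap2 were named by the highest Pearson correlation of log2(FPKM + 1), which is a description over 6 libraries that form 2 groups. Mfsd1 (r = 0.999), Nln (0.998), Ttc6 (0.996), Tubgcp2 (0.995) and Grhl2 (0.994) came first. The measure ignores size: Mfsd1 averaged 16.9 FPKM with atorvastatin and 15.4 FPKM in control, a ratio of 1.10. Grhl2, which encodes an epithelial transcription factor, was at 12.5, 13.1 and 13.0 FPKM with atorvastatin, against 6.48, 6.05 and 6.18 FPKM in control, a ratio of 2.06. The most opposite patterns were those of Rcbtb1 (r = -0.993), Nxf1 (-0.991), Acacb (-0.988), Psmb8 (-0.987) and Gpat3 (-0.986). Rcbtb1 averaged 4.47 FPKM with atorvastatin and 8.19 FPKM in control, a ratio of 0.546, and Acacb averaged 1.98 FPKM with atorvastatin and 2.20 FPKM in control, a ratio of 0.902.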

How the data were processed

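RNA from colon epithelial cells was measured in 3 atorvastatin and 3 control libraries. The mm10 build, the aligner Bowtie and the read-quality tool FastQC (0.11.2) are named in the submitters' processing notes. How fragments were quantified, with which annotation and strand setting, and how reads that map to several places were handled, is not given in the sources used here. Deposited values are FPKM, normalized by the authors to length and library total, a unit read from the values. FPKM carry no totals, so depth was estimated from genes with 1 annotated transcript: of their values up to 10 steps, 22.6% to 24.4% lay within 0.02 of a whole step, so reads were not recovered and no count model was used.

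Gene names came from a table that named 99.72% of identifiers, and coordinates from GENCODE M21 (GRCm38, which mm10 denotes). Log2(FPKM + 1) of the 11644 genes that reached 1 FPKM in 3 or more libraries was fitted with limma 3.58.1 in R 4.3.3 (trended, robust empirical Bayes, two-sided, Benjamini-Hochberg over all tested genes), after a check on simulated data. On this scale, changes of low genes are understated. The ± after a difference is the standard error and after an FPKM value the SD. Near-identical genes were sought with BLAST 2.17.0 (at least 90% identity over 100 bases), and coding sequences were aligned with Biopython 1.88. All 10 members, pathway genes by size, level or call, and the 5 most and least alike patterns are named. Members and lists were chosen with earlier results of these data known.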

Additional observations from a re-analysis of the deposited data

How the results depend on the processing

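The family was chosen for the Rap1gap2 value in these libraries, so its values under the 16 alternatives are a description and support nothing. The difference was 1.33 and 1.28 with pseudocounts of 0.1 and 0.5, and 1.20 to 1.25 with 1 library left out. Of the pathway genes, 0 passed limma's test under any of the 16, where 1 to 72 of all tested genes did. The lowest adjusted p among the pathway genes was 0.243 to 0.658. The count over all genes was 2 with no filter on low values, where 28981 genes were tested, and 7 to 72 with 1 library left out. With the replicate block it was 1, Rap1gap2, and its difference was 1.22. The labels do not say what a replicate number marks, and deviations of same-numbered libraries correlated at -0.139, -0.106 and 0.014, so the numbers were not taken to pair the samples. No library correlated best with the library of its own number in the other group. The differences of Rap1gap, Sipa1l3, Rapgef1 and Rapgef6 changed sign with 1 library left out, as given above, and under no other alternative. The Rapgef2 difference was -0.22 with a pseudocount of 0.1. Sipa1 entered the fit with no filter only, and Sipa1l3, Rapgef2 and Rapgef6 could not be fitted at 5 FPKM.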

Other observations

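The genes around Rap1gap2 on chromosome 11 were read after its values were known. Within 200000 bases of it, the annotated olfactory receptor genes on its downstream side were at 0.023 FPKM or less in each library. On its upstream side, Ccdc92b was at 0.228, 0.266 and 0.192 FPKM with atorvastatin, against 0.174, 0.171 and 0.0960 FPKM in control. Cluh, which encodes an RNA-binding protein for transcripts of mitochondrial proteins, was at 33.9, 29.0 and 29.1 FPKM with atorvastatin, against 30.3, 29.9 and 32.1 FPKM in control, with overlap. Pafah1b1, which encodes the dynein regulator LIS1, was at 20.2, 18.7 and 19.4 FPKM with atorvastatin, against 20.3, 12.2 and 20.2 FPKM in control, where replicate 2 was low. Mettl16, an RNA methyltransferase gene, was at 1.13, 1.46 and 1.63 FPKM with atorvastatin and 1.13, 0.900 and 1.64 FPKM in control.

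The start sites of the members differed in CpG content. RefSeq promoter windows were matched for 9 of the 10 members, all but Rap1a. Rap1b held 48 CpG dinucleotides and Rapgef6 held 34, the Rapgef2 windows held 8 and 4, and the 2 Sipa1l1 windows held 48 and 1. Rap1gap2 had 4 listed starts with 31, 39, 4 and 30 CpG dinucleotides, and each of the 4 windows held the GC box letters.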
